A study of Homo sapiens with 9 samples.

Results

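The nuclear genes for the subunits of the oxidative phosphorylation complexes were examined in 22Rv1 cells, a human prostate carcinoma line, after knockdown of CHD9, a member of the chromodomain helicase family of chromatin remodellers. Members were taken by symbol from the count table. They are the protein-coding genes whose symbols start with NDUFA, NDUFB, NDUFC, NDUFS, NDUFV, UQCR, COX4 to COX8 or ATP5, together with SDHA, SDHB, SDHC, SDHD and CYC1, without the NDUFAF assembly factors, pseudogenes or antisense genes. The rule found 91 members among 67071 table entries, and 80 of them passed the filter on low counts that left 16855 genes tested. The members comprise 38 genes of complex I, 4 of complex II, 10 of complex III, 19 of complex IV and 20 of complex V. NDUFA4 and its homologue NDUFA4L2 carry complex I names but were placed with complex IV, of which NDUFA4 is a subunit. The readthrough genes NDUFC2-KCTD14 and ATP5MF-PTCD1, each joining a member to its neighbour, entered by the letters of the rule.

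Oxidative phosphorylation is carried out by 5 protein complexes in the inner mitochondrial membrane. Complex I and complex II pass electrons from NADH and from succinate to ubiquinone, complex III passes them on to cytochrome c, and complex IV reduces oxygen. The proton gradient built on the way drives complex V, the ATP synthase. A few core subunits are encoded by mitochondrial DNA, and all others by the nuclear genes described here, whose promoters are known for binding sites of NRF1, of the ETS factor GABP and of YY1.

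The comparison is between 3 groups of 3 RNA-seq libraries of polyadenylated RNA, all from 22Rv1 cells in the same serum-containing RPMI medium. The shGFP group expressed a short hairpin RNA against GFP and has the wild-type genotype label, and the groups shCHD9_1 and shCHD9_2 expressed 2 different hairpins against CHD9, called hairpin 1 and hairpin 2 here. The labels do not say whether replicates came from separate cultures, so a p-value here measures only how far these libraries scatter, and that scatter may be technical. All groups share the same shGFP controls, so the contrasts of the hairpins with shGFP are not independent of each other.

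Library totals were 18911142 to 31968602 counts, of which the members took 1.45% to 1.59%. Levels are given as CPM, counts scaled to the TMM-adjusted library total. CHD9 itself was at 20.6 to 23.2 CPM with shGFP, at 14.8 to 16.7 with hairpin 1 and at 18.4 to 19.3 with hairpin 2. Its log2 fold change was -0.52 ± 0.073 (SE) with hairpin 1 and -0.24 ± 0.070 with hairpin 2 (edgeR adjusted p = 7.2e-08 and 0.006), so the knockdown was partial and weaker with hairpin 2. All 9 prostate luminal marker genes fixed for the check were measured. Their summed level was 1971 to 2006 CPM with shGFP, 2263 to 2288 with hairpin 1 and 2133 to 2155 with hairpin 2. Summed basal and endothelial markers stayed at or under 0.268 CPM and leukocyte markers at or under 1.17 CPM, with 1 marker of each of these lists at 0 in every library. The fibroblast list lay at 8.84 to 9.62 CPM with shGFP, 11.0 to 12.5 with hairpin 1 and 10.4 to 13.4 with hairpin 2. The part of the luminal and fibroblast differences in the results below was not tested. In bulk RNA, fewer cells of a kind and less RNA per cell cannot be told apart.

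The control level of the members differed widely between genes whose proteins sit in one complex. Levels between genes are compared here as CPM per kilobase of exon, the mean of the 3 shGFP libraries. The length is that of all annotated exons of a gene together, not of 1 transcript. At the same CPM, a gene with more annotated exonic bases comes out lower. ATP5F1B, the catalytic beta subunit of ATP synthase (ENSG00000110955.9, GRCh38 chr12:56638175-56646068, minus strand), was the highest member at 1000 CPM per kilobase, against 76.6 for ATP5F1A, the alpha subunit that alternates with it in the catalytic head. ATP5F1B has 2322 exonic bases and ATP5F1A 10908, so much of this gap is length. Their counts in the shGFP libraries were 44225 to 61222 and 16014 to 21839. By the same measure the highest member of complex I was NDUFS5 (306), of complex II the iron-sulphur subunit SDHB (56.3), of complex III cytochrome c1, CYC1 (250), and of complex IV COX5B (245). The lowest tested members of complex I were NDUFV2 (0.214), a core iron-sulphur subunit of the NADH-binding module, and the accessory subunit NDUFA3 (0.305). In complex II the flavoprotein subunit SDHA was at 0.728, against 17.0 to 56.3 for the other 3 subunits. Length enters here too, as SDHC has 14160 exonic bases and SDHB 2462. SDHC had the higher counts in the shGFP libraries, 4649 to 6424 against 2647 to 3680.

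**Figure D1:**
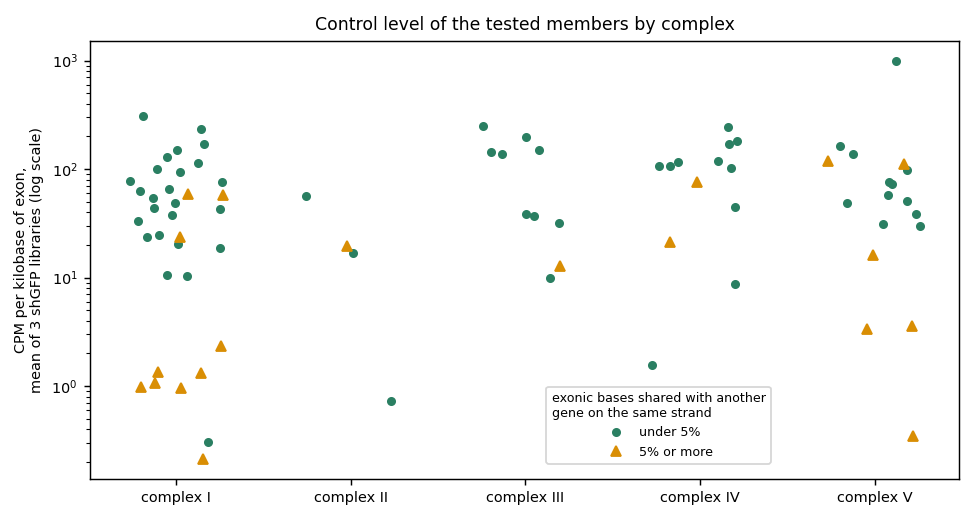
Control level of the 80 tested members. Each point is a gene, the vertical log axis gives CPM per kilobase of exon as the mean of the 3 shGFP libraries, and the columns are the complexes. Triangles mark genes with at least 5% of their exonic bases in an exon of another gene on the same strand. Complex V spans from 0.347 for the readthrough ATP5MF-PTCD1 to 1000 for ATP5F1B.

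Several members that other cell types express widely were listed at or near 0. NDUFS1, which carries iron-sulphur clusters of complex I, and NDUFA6 had 0 counts in all 9 libraries. ATP5IF1, the inhibitor of ATP hydrolysis by complex V, had 1 count in all libraries together. NDUFV2 had 9 to 38 counts per library, while its partner NDUFV1, the NADH-binding subunit, had 5646 to 10214. SDHA had 118 to 177 counts and its partner SDHB 2647 to 4717. These values describe what the deposited counting assigned to a gene, and they are no evidence that a subunit is not expressed.

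Overlap with neighbouring genes was measured beside them. Of the members, 22 share at least 5% of their exonic bases with another gene on the same strand in GENCODE 29, and their median control level was 12.9 CPM, with 12 of the 22 under 20 CPM. The median of the other 69 was 147 CPM, again with 12 under 20 CPM. Of the 7 members at 0 counts in all 9 libraries 6 were among those 69, NDUFS1 (3.19% overlap) and NDUFA6 (0% overlap) included. The part of overlap in these levels was not tested, and the 5% and 20 CPM limits were set after the levels were seen. SDHA has near-identical pseudogene copies, and UQCRHL is a near-identical copy of UQCRH, so reads may have been divided between copies or left out for these genes.

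Altogether 11 members were not tested. They were NDUFS1, NDUFA6, ATP5IF1, the readthrough NDUFC2-KCTD14, the ATP5MG-like gene ATP5MGL, and the tissue-restricted isoforms COX4I2, COX6A2, COX6B2, COX7A1, COX7B2 and COX8C. None of them exceeded 2 counts in any library.

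With CHD9 knockdown, the members that passed the test went in both directions, and their changes were mostly small. For the mean of both hairpins against shGFP, 15 of 80 rose, 10 fell and 55 did not pass (edgeR quasi-likelihood test, Benjamini-Hochberg adjusted p under 0.05 over all genes tested). Of all genes tested, 45.5% passed in this contrast, 22.3% higher and 23.2% lower, against 31.25% of the members. The median log2 fold change of the members was 0.019, that of all genes 0.0014. The size of change, whatever its sign, had a median of 0.062 for the members and 0.174 for all genes. All genes were not matched to the members by level, and low counts alone widen the scatter of a fold change. Whether the smaller size is particular to the members was therefore not tested. Called with a fold change over 1.2 either way were 3 members (3.75%), namely NDUFC2, NDUFA4L2 and ATP5MG, and 23.2% of all genes. No member was called past 1.5-fold, and 8.10% of all genes were. With the correction for GC content and exonic length described below, 6 members were called past 1.2-fold, NDUFA5, NDUFV2 and COX6A1 in addition, and NDUFV2 was past 1.5-fold (0.84, edgeR adjusted p = 0.031, from 9 to 38 counts per library). These fold limits were set after the values were seen.

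The size of change was smaller with each hairpin too, but the share of members called was below that of all genes with hairpin 1 and above it with hairpin 2. With hairpin 1, 14 members rose and 15 fell, which is 36.25% of the 80 against 47.3% of all genes (23.9% higher, 23.4% lower). Without the filter on low counts the hairpin 1 share was above that of all genes, at 36.25% against 24.3%. It was also above with the correction for GC content and exonic length described below (47.5% against 44.6%). With hairpin 2, 20 rose and 11 fell, which is 38.75% against 35.7% of all genes (17.2% higher, 18.5% lower). The number higher with hairpin 1 was 9 without shGFP replicate 2, shCHD9_1 replicate 1 or shCHD9_1 replicate 3, and the number lower with hairpin 2 was 6 without shCHD9_2 replicate 3. DESeq2 called 13 members higher with hairpin 2, and its share of members called was below that of all genes (26.25% against 30.2%), as was the share without shGFP replicate 1 (28.75% against 30.6%). The median size of the log2 fold change was 0.077 for members and 0.212 for all genes with hairpin 1, and 0.083 and 0.157 with hairpin 2. Of the 55 members that did not pass in the mean contrast, 42 had a 95% interval of the fold change within 0.9 to 1.1, a band chosen after the values were seen. This does not hold with the correction for GC content and exonic length described next, under which 21 of these 42 were called, COX7C at a log2 fold change of 0.21 and NDUFB7 at -0.17 among them. For the remaining 13, among them NDUFV2, SDHA, COX8A and ATP5PO, the interval was wider, so changes of over 10% could not be told from none.

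**Figure D2:**
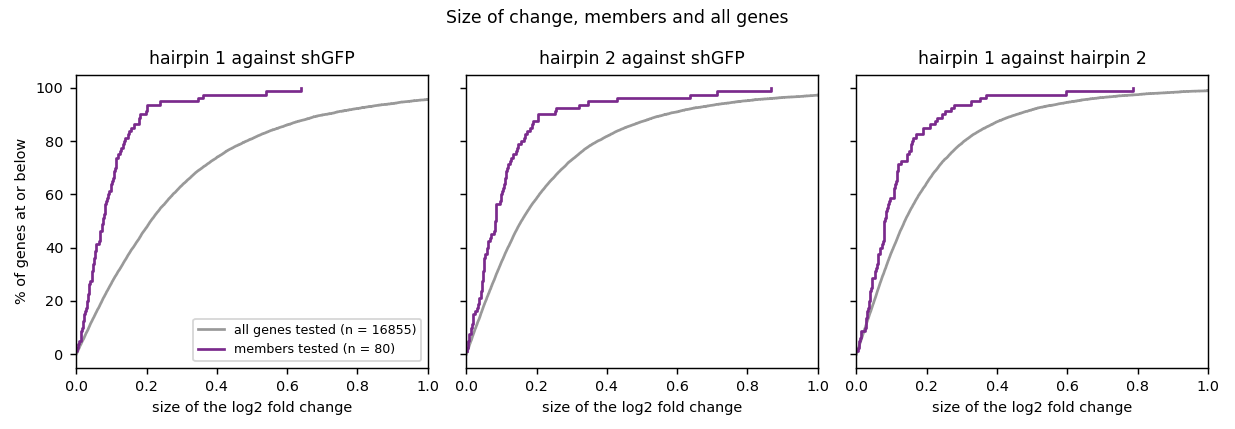
Size of the log2 fold change, without its sign, in 3 contrasts. The horizontal axis is the size of change and the vertical axis the percent of genes at or below it, for the 80 tested members and for all 16855 genes tested. The members' curve lies to the left in each panel, with medians of 0.077, 0.083 and 0.080 against 0.212, 0.157 and 0.138. All genes were not matched to the members by level.

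GC content moved with the knockdown across all genes, and the members' calls depend on it. Among tested genes with a GC content of up to 42.3%, the lowest of 4 equal groups, the median log2 fold change was -0.17 with hairpin 1 and -0.071 with hairpin 2. In the group with the highest GC content, over 56.7%, it was 0.15 and 0.069. Tested members span 35.0% to 65.0% GC with a median of 47.7%, and the 16 members in the lowest group include 3 of the 15 higher and 5 of the 10 lower calls in the mean contrast. With an offset per library for GC content and exonic length, 26 members were higher and 13 lower, 48.75% of the members against 44.0% of all genes. The offset ended 9 of the 25 calls, those of NDUFA2, NDUFB4, SDHC, UQCRB, UQCRC1, COX6C, NDUFA4, ATP5F1E and ATP5PD, and 23 members that had not passed were called with it, 14 higher and 9 lower. In the mean contrast the lower share of members called therefore did not hold with this correction. Nor did it hold without the filter on low counts, at 31.25% against 23.3% of all genes. The smaller size of change held with the offset, at a median of 0.080 for members and 0.162 for all genes, again not matched by level. Whether GC content moved with the cells or with the libraries was not tested.

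**Figure D3:**
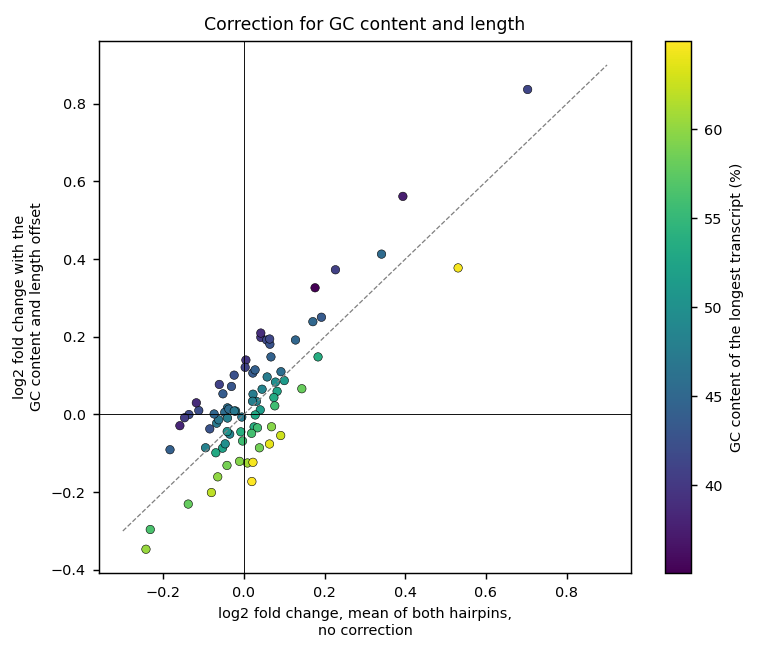
Log2 fold change of the 80 tested members, mean of both hairpins against shGFP, without correction (horizontal axis) and with the offset for GC content and exonic length (vertical axis). Each point is a gene, coloured by the GC content of its longest transcript, and the dashed line marks equal values. Most members of low GC content lie above the line and most of high GC content below it, so that COX6C (42.1% GC) moved from -0.11 to 0.010 and CYC1 (64.5% GC) from 0.022 to -0.12.

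Of the 25 calls in the mean contrast, 12 held under every alternative run. NDUFA5, NDUFB2, UQCR11, UQCRFS1, UQCRH, NDUFA4L2, ATP5F1A, ATP5F1B and ATP5MG rose, and NDUFB3, NDUFS8 and ATP5MC2 fell, the offset and leaving out each library included. In 11 members all 6 knockdown libraries were above all 3 shGFP libraries, against 15.5% of all genes, and in 7 all 6 were below them, against 16.2% of all genes. For the other 62 the groups overlapped.

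In the levels of the members, the library shCHD9_2 replicate 1 stood apart from its group. It was the highest of the 3 hairpin 2 libraries for 57 of 80 members, while each of the other 8 libraries was highest in its own group for 6 to 34 members. The same count was not made over all genes, so whether this is particular to the members was not tested. The members summed to 15872 CPM in it and to 15081 and 15063 CPM in the other hairpin 2 libraries. The shGFP libraries summed to 14959 ± 76.0 CPM (SD, n = 3) and the hairpin 1 libraries to 14834 ± 63.2 (SD, n = 3). Without that library the number of lower members in the mean contrast went from 10 to 17, out of 80.

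**Figure D4:**
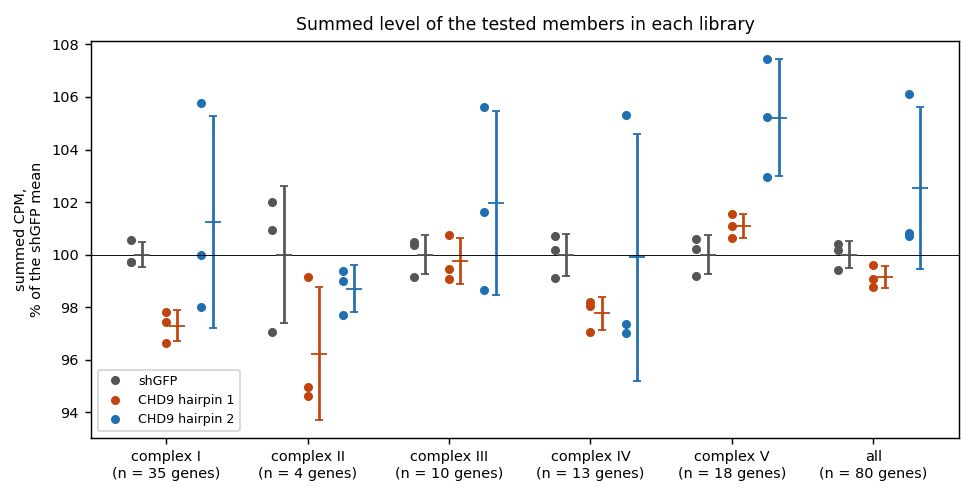
Summed CPM of the tested members of each complex in each library, as percent of the shGFP mean. Points are libraries, and the bars beside them give the mean ± SD of the 3 libraries of a group. The highest hairpin 2 point in each column is shCHD9_2 replicate 1. Complex V is above all shGFP libraries in every knockdown library, at 5688 to 6071 CPM against 5605 to 5685.

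Of the 35 tested members of complex I 5 rose and 3 fell in the mean contrast, with a median log2 fold change of 0.020. With the offset 10 were higher and 8 lower, 51.4% of the 35 against 44.0% of all genes. With hairpin 1, 4 rose and 6 fell, and with hairpin 2, 6 rose and 4 fell. Its summed level was 3830 to 3863 CPM with shGFP, 3713 to 3758 with hairpin 1 and 3765 to 4063 with hairpin 2.

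NDUFB2, an accessory subunit of the membrane arm (ENSG00000090266.13, chr7:140690777-140722790, plus strand), was at 170, 171 and 169 CPM with shGFP, at 188, 190 and 185 with hairpin 1 and at 187, 186 and 176 with hairpin 2. All 6 knockdown libraries were above the controls, and the log2 fold change was 0.13 ± 0.026 (SE, edgeR adjusted p = 5.5e-05). NDUFA5, an accessory subunit of the hydrophilic arm, was at 109, 98.5 and 103 CPM with shGFP, at 103, 119 and 110 with hairpin 1 and at 117, 129 and 123 with hairpin 2. Here the hairpin 1 libraries overlapped the controls and the hairpin 2 libraries did not. In the mean contrast its log2 fold change was 0.18 ± 0.035 (edgeR adjusted p = 5.7e-05) and 0.25 ± 0.040 with hairpin 2. With hairpin 1 it was 0.098 ± 0.041, a call lost without shGFP replicate 2 or 3 or shCHD9_1 replicate 2 or 3 (edgeR adjusted p from 0.068 to 0.42).

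In the lower direction, NDUFS8, a core subunit with iron-sulphur clusters (chr11:68030617-68036644, plus strand), was at 152, 152 and 149 CPM with shGFP, at 133, 134 and 133 with hairpin 1 and at 149, 140 and 133 with hairpin 2. The hairpin 1 libraries were clear of the controls and those of hairpin 2 reached up to them. NDUFS8 had a log2 fold change of -0.14 ± 0.029 (edgeR adjusted p = 9.1e-05), and -0.23 with the GC and length offset. NDUFB3 of the membrane arm fell from 68.3 to 71.1 CPM with shGFP to 58.3 to 62.9 with hairpin 1 and 55.1 to 65.7 with hairpin 2, a log2 fold change of -0.18 ± 0.041 (edgeR adjusted p = 0.00022). NDUFB4, also of the membrane arm, was at 246, 247 and 247 CPM with shGFP, at 223, 227 and 222 with hairpin 1 and at 245, 223 and 206 with hairpin 2. Its log2 fold change of -0.14 ± 0.030 (edgeR adjusted p = 0.00018) became -0.00015 with the offset (edgeR adjusted p = 0.997).

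NDUFC2, another membrane arm subunit, had low counts (118 to 259 per library) and moved with 1 hairpin. It was at 7.42, 5.21 and 6.08 CPM with shGFP, at 10.1, 9.16 and 9.66 with hairpin 1 and at 6.50, 5.77 and 7.03 with hairpin 2. Hairpin 1 libraries were above all others, and hairpin 2 libraries lay among the controls. The log2 fold change was 0.64 ± 0.12 with hairpin 1 (edgeR adjusted p = 1.2e-05), 0.044 ± 0.12 with hairpin 2, and 0.59 ± 0.11 between the hairpins (edgeR adjusted p = 5.7e-05). Its call in the mean contrast was lost without shGFP replicate 2 (edgeR adjusted p = 0.11). Of NDUFC2's exonic bases 16.2% are shared with another gene on the same strand. The smaller calls of NDUFA2 (0.082) and NDUFA9 (0.19) were also lost when a single control library was left out, NDUFA2 without shGFP replicate 1 or 3 and NDUFA9 without shGFP replicate 1 or 2, among others.

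NDUFV1, the subunit that binds NADH and FMN, was called in opposite directions by the 2 hairpins. It was at 297, 306 and 291 CPM with shGFP, at 280, 273 and 278 with hairpin 1 and at 317, 315 and 315 with hairpin 2. The 3 groups did not overlap, and 8.37% of the gene's exonic bases are shared with another gene on the same strand. The log2 fold change was -0.10 ± 0.026 with hairpin 1 (edgeR adjusted p = 0.00085) and 0.083 ± 0.026 with hairpin 2 (edgeR adjusted p = 0.0093). The higher call with hairpin 2 was lost without shGFP replicate 3 (edgeR adjusted p = 0.079) and with the offset (0.020, edgeR adjusted p = 0.54). NDUFS5, highest of complex I per length, was at 159 to 173 CPM with shGFP, 164 to 168 with hairpin 1 and 155 to 173 with hairpin 2, and did not pass in any contrast.

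**Figure D5:**
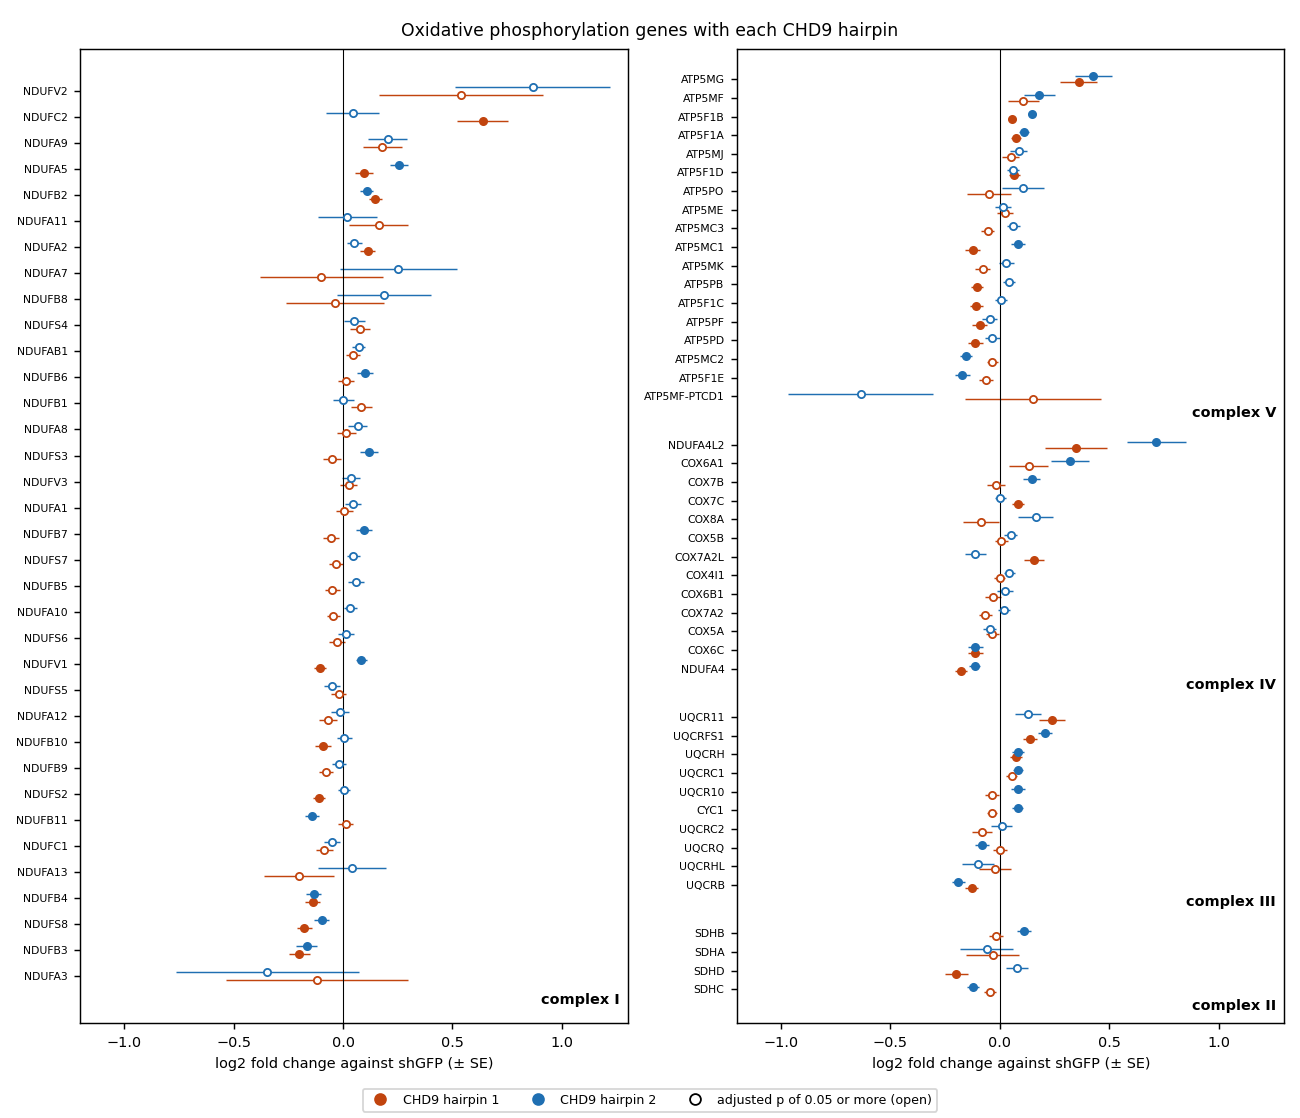
Log2 fold change against shGFP for each of the 80 tested members, by complex. The horizontal axis is the log2 fold change, points are hairpin 1 and hairpin 2, bars are ± SE, and open points have an adjusted p of 0.05 or more. Most points lie within 0.2 of 0. NDUFA4L2 and ATP5MG lie to the right with filled points for both hairpins, and NDUFC2 has a filled point for hairpin 1 at 0.64 and an open one for hairpin 2 at 0.044.

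Complex II, which is also an enzyme of the tricarboxylic acid cycle, had 1 call in the mean contrast, and its subunits differed in direction between hairpins. SDHC, a membrane anchor (chr1:161314257-161375340, plus strand), was at 245, 233 and 246 CPM with shGFP, at 228, 241 and 232 with hairpin 1 and at 223, 223 and 218 with hairpin 2. The hairpin 2 libraries were below all controls. It fell in the mean contrast with a log2 fold change of -0.085 ± 0.024 (edgeR adjusted p = 0.0039), a call that ended with the offset (-0.037, edgeR adjusted p = 0.18).

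SDHD, the other anchor, was at 55.6, 53.8 and 58.6 CPM with shGFP, at 45.0, 52.9 and 48.3 with hairpin 1 and at 55.6, 57.9 and 64.6 with hairpin 2. It fell with hairpin 1 (-0.20 ± 0.053, edgeR adjusted p = 0.0015) and differed between the hairpins by -0.28 ± 0.051 (edgeR adjusted p = 3.5e-05). With the offset the hairpin 1 value was -0.018 and did not pass, while the difference between hairpins did, at -0.19 (edgeR adjusted p = 0.0018). SDHB was at 139, 136 and 141 CPM with shGFP, at 139, 138 and 133 with hairpin 1 and at 155, 145 and 148 with hairpin 2. It rose with hairpin 2 alone among the contrasts with shGFP (0.11 ± 0.032, edgeR adjusted p = 0.0057), and the difference between hairpins was -0.13 ± 0.032 (edgeR adjusted p = 0.0016). SDHA did not pass in any contrast.

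In complex III 4 of 10 members rose and 1 fell in the mean contrast, with a median log2 fold change of 0.022, and 3 were higher and 1 lower with the offset. UQCRFS1, the Rieske iron-sulphur protein that hands electrons to cytochrome c1 (ENSG00000169021.6, chr19:29205321-29213541, minus strand), was at 131, 133 and 136 CPM with shGFP, at 153, 142 and 145 with hairpin 1 and at 158, 153 and 150 with hairpin 2. Every knockdown library was above every control. The log2 fold change was 0.17 ± 0.028 (edgeR adjusted p = 2.0e-06), at 0.14 with hairpin 1 and 0.20 with hairpin 2, and 0.24 in the mean contrast with the offset.

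UQCR11, a small accessory subunit (chr19:1597172-1605490, minus strand), was at 28.4, 27.4 and 26.7 CPM with shGFP, at 32.4, 32.2 and 32.6 with hairpin 1 and at 32.2, 29.05 and 28.7 with hairpin 2. All knockdown libraries were above the controls, and the log2 fold change was 0.18 ± 0.051 (edgeR adjusted p = 0.0028). UQCRH, the hinge protein between cytochrome c1 and cytochrome c, rose by 0.078 ± 0.024 on the log2 scale (edgeR adjusted p = 0.0075), from 275 to 281 CPM with shGFP to 284 to 310 in the knockdown libraries. UQCRC1, a core protein, was at 441, 454 and 438 CPM with shGFP, at 470, 459 and 456 with hairpin 1 and at 476, 469 and 468 with hairpin 2. All knockdown libraries were above the controls, but its log2 fold change of 0.068 ± 0.021 (edgeR adjusted p = 0.0062) turned to -0.032 with the offset and missed the threshold without shGFP replicate 3 (edgeR adjusted p = 0.051).

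UQCRB, the ubiquinone-binding subunit, was the 1 member of complex III that fell. It was at 358, 356 and 374 CPM with shGFP, at 331, 332 and 333 with hairpin 1 and at 339, 317 and 297 with hairpin 2, all below the controls. Its log2 fold change was -0.16 ± 0.026 (edgeR adjusted p = 2.3e-06) and, with the offset, -0.029 (edgeR adjusted p = 0.42). At 38.3% GC it is the member of complex III with the lowest GC content. CYC1, at 64.5% the highest, was at 490, 497 and 494 CPM with shGFP, at 482, 481 and 481 with hairpin 1 and at 525, 511 and 531 with hairpin 2. It rose with hairpin 2 (0.081 ± 0.023, edgeR adjusted p = 0.0053), was not called with hairpin 1 (-0.036), and with the offset was lower in the mean contrast (-0.12, edgeR adjusted p = 2.9e-07). UQCR10 was at 149, 145 and 148 CPM with shGFP, at 145, 139 and 146 with hairpin 1 and at 164, 154 and 149 with hairpin 2. It rose with hairpin 2 by 0.082 ± 0.033 (edgeR adjusted p = 0.046), a call lost without shCHD9_2 replicate 1 (edgeR adjusted p = 0.27), among other libraries.

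Complex IV had 2 members higher and 2 lower of 13 tested in the mean contrast, with a median log2 fold change of 0.022, and 6 higher and 1 lower with the offset. The isoform pair NDUFA4 and NDUFA4L2 went apart. NDUFA4, the ubiquitous form (ENSG00000189043.10, chr7:10931951-10940256, minus strand), was at 419, 415 and 408 CPM with shGFP, at 370, 367 and 361 with hairpin 1 and at 401, 373 and 372 with hairpin 2. All knockdown libraries were below the controls, and the log2 fold change was -0.15 ± 0.023 (edgeR adjusted p = 7.0e-07). With the offset it was -0.0084 (edgeR adjusted p = 0.80).

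NDUFA4L2, a homologue known as a target of hypoxia-inducible factor (ENSG00000185633.10, chr12:57234903-57240715, minus strand), was at 3.47, 4.72 and 5.09 CPM with shGFP, at 5.60, 5.69 and 5.82 with hairpin 1 and at 6.35, 7.0 and 8.96 with hairpin 2. All knockdown libraries were above the controls. At a log2 fold change of 0.53 ± 0.12 (edgeR adjusted p = 0.00035), it had the largest change of the members called in the mean contrast without the offset. It remained called with the offset (0.38, edgeR adjusted p = 0.010). The hairpin 1 value alone (0.35 ± 0.14, edgeR adjusted p = 0.042) was lost with the offset (0.15) and without any 1 of 5 libraries, among them shGFP replicate 1 (0.22, edgeR adjusted p = 0.25). The counts behind these levels were 66 to 227 per library.

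COX6C, an accessory subunit, was at 338, 318 and 331 CPM with shGFP, at 302, 302 and 310 with hairpin 1 and at 330, 302 and 281 with hairpin 2. It fell by 0.11 ± 0.029 on the log2 scale (edgeR adjusted p = 0.0011), and with the offset its value was 0.010. COX6A1 was at 31.9, 26.1 and 28.3 CPM with shGFP, at 30.9, 32.1 and 31.1 with hairpin 1 and at 35.4, 28.5 and 45.2 with hairpin 2. The groups overlapped, and shCHD9_2 replicate 3 was far above the rest. Its log2 fold change of 0.23 ± 0.076 (edgeR adjusted p = 0.013) missed the threshold without that library (0.14, edgeR adjusted p = 0.059) and without shGFP replicate 2 (0.16, edgeR adjusted p = 0.13).

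Among the isoform families of complex IV, the ubiquitous form was the measured one. COX4I1, the regulatory subunit IV, was at 484 to 500 CPM with shGFP, 485 to 492 with hairpin 1 and 495 to 525 with hairpin 2, and its lung-associated form COX4I2 was at 0 counts in every library. COX6B1 was at 153 to 161, 149 to 162 and 150 to 174 CPM in the same order, and COX6B2, a testis form, had at most 2 counts. COX7A2 was at 203 to 208, 191 to 200 and 202 to 212 CPM, and COX7A1, the muscle form, had at most 1 count. The muscle form COX6A2 and the forms COX7B2 and COX8C had 0 counts. None of COX4I1, COX6B1 and COX7A2 passed against shGFP with either hairpin, but this changed with the offset. COX7A2 was then higher (0.10, edgeR adjusted p = 0.00023) and COX6B1 lower (-0.068, edgeR adjusted p = 0.041) in the mean contrast, and COX4I1 higher with hairpin 2 (0.065, edgeR adjusted p = 0.017).

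COX7A2L, which takes part in joining complexes III and IV into supercomplexes, was at 49.1, 47.2 and 52.0 CPM with shGFP, at 53.6, 54.6 and 57.0 with hairpin 1 and at 48.3, 44.9 and 44.1 with hairpin 2. Hairpin 1 libraries were above all others, and the difference between hairpins was 0.27 ± 0.047 on the log2 scale (edgeR adjusted p = 1.5e-05). Its hairpin 1 call (0.16 ± 0.048) missed the threshold without shGFP replicate 2 or without shCHD9_1 replicate 3 (edgeR adjusted p = 0.054 and 0.050). COX7B was at 134, 131 and 139 CPM with shGFP, at 130, 143 and 127 with hairpin 1 and at 161, 149 and 136 with hairpin 2, and rose with hairpin 2 (0.14 ± 0.041, edgeR adjusted p = 0.0040). That call was lost without shCHD9_2 replicate 1 (edgeR adjusted p = 0.066). Its difference between hairpins (-0.16, edgeR adjusted p = 0.0017) was lost with the offset (-0.086, edgeR adjusted p = 0.086), where it was higher with both hairpins. COX8A was at 37.4 to 40.9 CPM with shGFP, 35.0 to 37.7 with hairpin 1 and 32.9 to 51.5 with hairpin 2, and did not pass against shGFP. With the offset it was lower with hairpin 1 (-0.22, edgeR adjusted p = 0.028). Its difference between hairpins (-0.25, edgeR adjusted p = 0.015) was lost without shCHD9_1 replicate 3 or shCHD9_2 replicate 1 or 3 (edgeR adjusted p from 0.080 to 0.26). COX5B, highest of complex IV per length, was at 352, 353 and 352 CPM with shGFP, at 360, 348 and 354 with hairpin 1 and at 390, 359 and 345 with hairpin 2, and did not pass in any contrast.

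In complex V 4 of 18 tested members rose and 3 fell in the mean contrast (6 and 3 with the offset), with a median log2 fold change of -0.0087, which became 0.042 with the offset. Its summed level was carried by ATP5F1B. ATP5F1B was at 2328, 2300 and 2341 CPM with shGFP, at 2414, 2387 and 2435 with hairpin 1 and at 2577, 2536 and 2599 with hairpin 2. The 3 groups did not overlap and hairpin 2 was the highest. The log2 fold change was 0.10 ± 0.017 (edgeR adjusted p = 2.4e-06) in the mean contrast, 0.054 ± 0.019 with hairpin 1 and 0.15 ± 0.019 with hairpin 2. For hairpin 1 the call ended when shGFP replicate 2 was left out (edgeR adjusted p = 0.071), likewise shCHD9_1 replicate 1 or 3, and with the offset (0.036, edgeR adjusted p = 0.080).

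ATP5F1A (ENSG00000152234.16, chr18:46080248-46104334, minus strand) was at 843, 830 and 835 CPM with shGFP, at 890, 879 and 869 with hairpin 1 and at 918, 877 and 913 with hairpin 2. All knockdown libraries were above the controls, with a log2 fold change of 0.092 ± 0.019 (edgeR adjusted p = 0.00011). ATP5MG, subunit g at the dimer interface of the membrane part, was at 12.4, 10.7 and 11.3 CPM with shGFP, at 15.1, 14.3 and 14.7 with hairpin 1 and at 15.03, 14.8 and 16.6 with hairpin 2. Again every knockdown library was above the controls. Its log2 fold change was 0.39 ± 0.073 (edgeR adjusted p = 1.8e-05), nearly alike with hairpin 1 (0.36) and hairpin 2 (0.43), and 0.56 with the offset. Of its exonic bases 8.19% are shared with another gene on the same strand. The delta subunit ATP5F1D also rose, by 0.063 ± 0.022 (edgeR adjusted p = 0.018), a call lost without shGFP replicate 3 (edgeR adjusted p = 0.089) or shCHD9_1 replicate 1 (edgeR adjusted p = 0.053).

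The 3 genes for subunit c, the ring that turns with the proton flow, encode the same mature protein and moved differently. ATP5MC2 (chr12:53632726-53677408, minus strand) was at 444, 439 and 445 CPM with shGFP, at 430, 434 and 433 with hairpin 1 and at 417, 386 and 391 with hairpin 2. The 3 groups did not overlap and hairpin 2 was lowest. It fell by 0.095 ± 0.022 on the log2 scale in the mean contrast (edgeR adjusted p = 0.00043), with -0.035 for hairpin 1, which did not pass, and -0.15 for hairpin 2. ATP5MC1 was at 153, 152 and 148 CPM with shGFP, at 137, 139 and 138 with hairpin 1 and at 165, 152 and 163 with hairpin 2. It was lower with hairpin 1 (-0.13 ± 0.032, edgeR adjusted p = 0.0013) and higher with hairpin 2 (0.084 ± 0.032, edgeR adjusted p = 0.034). The higher call was lost without shGFP replicate 2 or 3 or shCHD9_2 replicate 1 or 3 (edgeR adjusted p from 0.056 to 0.15). ATP5MC3 did not pass against shGFP with either hairpin, but with the offset it was higher in the mean contrast (0.12, edgeR adjusted p = 3.0e-05) and with both hairpins, while ATP5MC2 stayed lower (-0.086).

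ATP5PB of the peripheral stalk was at 247, 240 and 248 CPM with shGFP, at 228, 227 and 229 with hairpin 1 and at 255, 247 and 254 with hairpin 2. It fell with hairpin 1 (-0.10 ± 0.027, edgeR adjusted p = 0.0014) and did not pass with hairpin 2 (0.041). With the offset the hairpin 1 value was 0.026 and did not pass, and the gene was higher in the mean contrast (0.072, edgeR adjusted p = 0.0036). The epsilon subunit ATP5F1E and the stalk subunit ATP5PD fell in the mean contrast, by 0.12 ± 0.029 (edgeR adjusted p = 0.00069) and 0.074 ± 0.030 (edgeR adjusted p = 0.042). Both calls ended with the offset. The ATP5PD call was lost in 8 of the 9 fits that left out a library, shCHD9_2 replicate 1 being the exception.

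The hairpins were also compared with each other directly, in the same fit, where the shGFP libraries do not enter the difference but share in the estimate of the spread. Of the 80 members 8 were higher and 22 lower with hairpin 1 than with hairpin 2, 37.5% against 29.2% of all genes (15.6% higher, 13.6% lower). The median log2 difference of the members was -0.053, that of all genes -0.0029. The 22 lower members included 8 of complex I, 6 of complex V, 4 of complex IV and 2 each of complexes II and III. With the offset 12 were higher and 19 lower, 38.75% against 26.3% of all genes. The number higher was 5 without shCHD9_1 replicate 1 or 3 and 4 without shCHD9_2 replicate 2 or 3, and leaving out any 1 library gave 16 to 27 lower.

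Against shGFP, 8 members were higher with both hairpins (NDUFA5, NDUFB2, UQCRFS1, UQCRH, NDUFA4L2, ATP5F1A, ATP5F1B and ATP5MG) and 6 were lower with both (NDUFB3, NDUFB4, NDUFS8, UQCRB, COX6C and NDUFA4). With the offset NDUFS8 was the 1 of these 6 that stayed lower with both. NDUFB4, COX6C and NDUFA4 then passed with neither hairpin, and NDUFB3 (-0.064, edgeR adjusted p = 0.23) and UQCRB (0.045, edgeR adjusted p = 0.25) did not pass with hairpin 1. Some calls also rest on single libraries. Without shCHD9_2 replicate 3, the hairpin 2 calls of NDUFB3, NDUFB4, NDUFS8 and COX6C were lost (edgeR adjusted p from 0.053 to 0.16), those of NDUFS8 and COX6C also without shGFP replicate 1 (edgeR adjusted p = 0.052 and 0.051) and that of NDUFS8 without shCHD9_2 replicate 2 (edgeR adjusted p = 0.066). UQCRH lost its hairpin 1 call without shGFP replicate 1 or 2 or shCHD9_1 replicate 1 or 3, and its hairpin 2 call without shGFP replicate 2 or shCHD9_2 replicate 1 (edgeR adjusted p from 0.051 to 0.13). NDUFV1 and ATP5MC1 were lower with hairpin 1 and higher with hairpin 2, and no member was the reverse. A further 13 were called with hairpin 1 alone and 15 with hairpin 2 alone, and 36 with neither. Of all genes tested, 47.3% were called with hairpin 1 and 35.7% with hairpin 2. Their share in each of these joint classes was not counted, so the counts do not set the members apart from other genes. Of the 13, 8 also passed between the hairpins, among them NDUFC2, COX7A2L, SDHD and ATP5PB. Of the 15, 11 did, among them SDHB, SDHC, CYC1, COX7B and ATP5MC2. The difference for SDHC (0.078) was lost without shCHD9_1 replicate 2 or 3 or shCHD9_2 replicate 2 or 3 (edgeR adjusted p from 0.060 to 0.23). For the remaining members called with 1 hairpin, a difference between hairpins was not shown.

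Other genes of respiration were taken from 9 lists written from textbook knowledge, and counts are for the mean contrast, in which 22.3% of all genes rose and 23.2% fell. The mitochondrially encoded subunits rose in 6 of 13 tested and fell in 1, with a median log2 fold change of 0.082. MT-ND5 rose by 0.17 ± 0.018 (edgeR adjusted p = 9.9e-11), MT-ND2 by 0.16 and MT-CO3 by 0.13, and MT-CO1 fell by 0.046. With the offset 11 of 13 were higher and none lower. MT-CO1, the catalytic core of complex IV, did not pass then (0.015, edgeR adjusted p = 0.35), nor did 1 other. These transcripts come from polyadenylated RNA, and their level depends on how much mitochondrial RNA the selection kept.

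Assembly factors are proteins that help to build the complexes but stay out of them. Of 18 complex I assembly factors 2 rose and 3 fell, and with the offset 5 were higher and 4 lower. NDUFAF3 was at 229, 241 and 232 CPM with shGFP, at 179, 178 and 181 with hairpin 1 and at 178, 178 and 174 with hairpin 2. All knockdown libraries were far below the controls, with a log2 fold change of -0.40 ± 0.024 (edgeR adjusted p = 4.8e-18). NDUFAF6 fell by 0.48 ± 0.048 (edgeR adjusted p = 2.1e-11), and ECSIT, which also acts in innate immune signalling, rose by 0.44 ± 0.038 (edgeR adjusted p = 2.4e-13). All 3 kept their direction and call with the offset, at -0.54, -0.43 and 0.32.

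Of 24 tested complex IV assembly factors 7 rose and 7 fell, led by COA3 (-0.25), COX11 (-0.28) and COX18 (-0.23), and with the offset 7 were higher and 4 lower, these 3 among them. Of 9 complex III assembly factors 4 rose and none fell, led by UQCC5 (0.20), LYRM7 (0.15) and UQCC3 (0.11), and with the offset UQCC5, LYRM7 and TTC19 were higher and UQCC3 did not pass (0.057, edgeR adjusted p = 0.27). Among 4 complex II factors SDHAF1 rose (0.23) and SDHAF4 fell (-0.34), and SDHAF1 did not pass with the offset (0.098, edgeR adjusted p = 0.083). SDHAF3, the third by p, was at -0.11 and did not pass. Of 5 complex V factors ATPAF1 fell (-0.12), while TMEM70 (-0.088) and ATPAF2 (0.053) did not pass. Of 7 electron carriers and other ubiquinone reductases 3 fell, cytochrome c (CYCS, -0.15), ETFDH (-0.13) and GPD2 (-0.26), and none of these 3 passed with the offset. CYCS was at 459 to 484 CPM with shGFP, 364 to 391 with hairpin 1 and 465 to 484 with hairpin 2.

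The tricarboxylic acid cycle and pyruvate dehydrogenase list, which feeds the chain with NADH and succinate, had 7 of 18 higher and 7 lower (6 and 5 with the offset). IDH3A, the catalytic subunit of the NAD-dependent isocitrate dehydrogenase, was at 52.9, 50.6 and 51.4 CPM with shGFP, at 69.5, 71.9 and 72.1 with hairpin 1 and at 101, 98.0 and 108 with hairpin 2. The 3 groups were far apart and the log2 fold change was 0.72 ± 0.036 (edgeR adjusted p = 5.1e-21). This was larger than that of any member called in the mean contrast without the offset. With the offset NDUFV2 was called at 0.84. Citrate synthase, CS, rose by 0.38 ± 0.021 (edgeR adjusted p = 1.5e-19). PDHX, a binding protein of the pyruvate dehydrogenase complex, fell by 0.40 ± 0.040 (edgeR adjusted p = 1.4e-11). All 3 kept their call with the offset (0.80, 0.37 and -0.31).

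Of 13 tested factors for transcription of these genes and of mitochondrial DNA 5 rose and 3 fell. ESRRA, the nuclear receptor ERR alpha, was at 224 to 230 CPM with shGFP, 277 to 286 with hairpin 1 and 263 to 271 with hairpin 2, and rose by 0.27 ± 0.023 (edgeR adjusted p = 1.9e-13). TWNK, the mitochondrial DNA helicase, rose by 0.27 and POLRMT, the mitochondrial RNA polymerase, by 0.16. ESRRA and TWNK passed with the offset (0.14 and 0.21), and POLRMT did not (-0.035). GABPA and GABPB1, subunits of GABP, and TFAM fell in the mean contrast (-0.22, -0.13 and -0.13), and no member of the list was lower with the offset. NRF1 itself did not pass (-0.0036).

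Promoter letters of the members were searched because the class is known for shared factor sites. RefSeq promoter windows on GRCh38.p14, from 250 bases before to 50 after a gene's start, were matched to 71 of 91 members. The match was by Ensembl gene identifier, and by symbol where the identifier gave none. A member counts as holding a motif where any of its windows has the letters on either strand. The NRF1 letters GCGCANGCG were in 33.8% of matched members and 12.5% of 15842 coding genes with a window. The ETS letters CCGGAAG were in 29.6% and 16.5%, and the YY1 letters AAGATGGC in 16.9% and 4.67%. The cyclic AMP response element letters TGACGTCA were in 7.04% (5 members) and 3.0%, and the CCAAT letters in 36.6% and 42.1%. The estrogen-related receptor letters TCAAGGTCA were in 1.41%, which is 1 member, and 0.335%. The 6 motifs were picked with the results known, and a match shows letters in a window and no binding. NRF1 letters were in 6 of 11 matched members that rose and 2 of 6 that fell in the mean contrast, and in 15 of 46 that did not pass. In the same order the counts were 5, 1 and 14 for ETS, 2, 0 and 9 for YY1, and 4, 4 and 13 for CCAAT. For the cyclic AMP response element they were 1, 0 and 4, and for the estrogen-related receptor 0, 0 and 1. These are calls without the offset. The split was not made for the calls with it, and a link of letters with direction was not tested.

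Windows of 4 called members are printed to show how these letters lie in members that went up and in members that went down. They were picked after the search. Sequences run 5′ to 3′ on the gene's strand, and capitals mark ETS, NRF1 or YY1 letters on either strand. UQCR11 and UQCRFS1 rose, and NDUFB4 and NDUFS8 fell.
UQCR11, chr19:1605413-1605712, minus strand: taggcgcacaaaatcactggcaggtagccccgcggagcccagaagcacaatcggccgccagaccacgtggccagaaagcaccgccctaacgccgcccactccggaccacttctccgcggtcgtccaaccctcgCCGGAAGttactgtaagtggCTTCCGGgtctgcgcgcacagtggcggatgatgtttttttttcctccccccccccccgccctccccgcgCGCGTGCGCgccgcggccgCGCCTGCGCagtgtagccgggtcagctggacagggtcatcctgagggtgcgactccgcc
UQCRFS1, chr19:29213102-29213401, minus strand: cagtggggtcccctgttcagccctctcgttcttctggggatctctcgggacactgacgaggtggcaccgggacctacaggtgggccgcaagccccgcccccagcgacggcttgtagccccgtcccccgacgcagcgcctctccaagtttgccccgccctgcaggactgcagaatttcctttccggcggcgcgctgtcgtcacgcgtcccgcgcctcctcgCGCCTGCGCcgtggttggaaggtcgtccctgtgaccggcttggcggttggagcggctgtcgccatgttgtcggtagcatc
NDUFB4, chr3:120596086-120596385, plus strand: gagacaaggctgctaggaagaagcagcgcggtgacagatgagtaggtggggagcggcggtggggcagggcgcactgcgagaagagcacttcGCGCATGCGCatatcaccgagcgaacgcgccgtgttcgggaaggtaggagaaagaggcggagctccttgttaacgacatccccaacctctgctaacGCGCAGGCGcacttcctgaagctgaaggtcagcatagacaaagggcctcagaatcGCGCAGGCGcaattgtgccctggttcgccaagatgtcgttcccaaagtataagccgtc
NDUFS8, chr11:68030431-68030730, plus strand: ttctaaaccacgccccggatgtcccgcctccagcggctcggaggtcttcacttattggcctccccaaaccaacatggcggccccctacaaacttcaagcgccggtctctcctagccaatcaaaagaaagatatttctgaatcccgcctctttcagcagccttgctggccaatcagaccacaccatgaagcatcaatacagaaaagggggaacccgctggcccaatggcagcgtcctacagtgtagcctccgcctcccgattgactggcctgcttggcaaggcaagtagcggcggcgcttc
The UQCR11 window holds 2 ETS and 2 NRF1 matches and the UQCRFS1 window 1 NRF1 match. The NDUFB4 window holds 4 NRF1 matches, a pair of which overlap on opposite strands, and the NDUFS8 window holds none of these motifs. The fall of NDUFB4 was not kept with the offset.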

How the data were processed

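RNA-seq of polyadenylated RNA was analysed in 9 libraries of 22Rv1 cells, 3 groups of 3, grouped by their labels. The authors deposited a table of whole-number counts per gene. Per the submitters' processing notes, Trim Galore, STAR, DESeq2 and hg38 were used, while counter, strandedness and gene annotation version were not stated there. Without them, reads of overlapping genes may have been divided or left out. Counts were fitted with edgeR 4.0.16 (R 4.3.3): filterByExpr with a minimum count of 10, TMM scaling, 1 mean per group over all 9 libraries and the quasi-likelihood test, with Benjamini-Hochberg adjustment over 16855 genes at 0.05. SEs are the log2 fold change over the root of F. The fit was tested on simulated data. GENCODE 29 gave lengths, GC content and overlaps. Alternatives were DESeq2 1.42.0 and its size factors, other filters, the compared groups alone, a per-library spline offset for GC content and exonic length, a replicate block, and leaving out each library. The members and lists were chosen with earlier results of these data known. Values per library were given, in each complex, for up to 4 members called in the mean contrast and up to 2 called between hairpins with the smallest p and for the highest level per length, for the tested complex IV isoform families and for ATP5IF1. Other members were added to describe a complex, and from each list up to 3 genes with the smallest p.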

Additional observations from a re-analysis of the deposited data

Results flagged for a closer look

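NDUFV1 and ATP5MC1 were called lower with hairpin 1 and higher with hairpin 2, and the difference between the hairpins was tested directly. Hairpin 1 minus hairpin 2 was -0.1881 on the log2 scale for NDUFV1 and -0.209 for ATP5MC1 (edgeR adjusted p = 1.5e-07 and 1.2e-06). With the offset for GC content and length, both differences passed, at -0.28 and -0.20. CHD9 was also lower with hairpin 1 than with hairpin 2, and whether the depth of knockdown, an effect of a hairpin on other targets or the libraries bears on these differences was not tested.

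The hairpins differed in 30 of the 80 tested members, 8 higher and 22 lower with hairpin 1, against 29.2% of all genes tested.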

How the results depend on the processing

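The offset for GC content and length changed the most values. With it, the members called higher were 26 (mean of both hairpins) and 23 (hairpin 1), and with the offset and the replicate block 27, 23 and, between hairpins, 13. In the order offset, then offset with block, the complex II median log2 fold change was 0.014 and 0.0136 in the mean contrast. For complex V it was 0.0416 and 0.04 in the mean contrast, 0.0184 and 0.0168 with hairpin 1, and 0.0916 and 0.0905 with hairpin 2. The complex III median was 0.0299 and 0.0297 with hairpin 1 and 0.0388 and 0.0338 with hairpin 2, and that of complex IV with hairpin 1 was 0.0445 and 0.0449.

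Among the 33 tested members chosen for values per library, reversed directions were counted where the member was called with or without the alternative. They occurred only under these 2 settings, given in the same order. Other members were not tallied here, and NDUFB7 for example turned to -0.17 in the mean contrast with the offset. In the mean contrast they were UQCRC1 (-0.0316, -0.0317), CYC1 (-0.1232, -0.1227), COX6C (0.0102, 0.0092), ATP5PB (0.0722, 0.0723) and COX7A2 (0.1013, 0.1008). With hairpin 1 they were NDUFB4 (0.0474, 0.0473), UQCRB (0.0455, 0.0449), UQCRC1 (-0.084 in both), NDUFA4 (0.0008, 0.0007), COX6C (0.0445, 0.0449), COX7B (0.1514, 0.1501), ATP5PB (0.0258, 0.0257) and COX7A2 (0.104, 0.1037). With hairpin 2 it was CYC1 (-0.0289, -0.0282). Between hairpins they were NDUFB4 (0.095, 0.099), COX7A2 (0.0056, 0.0058) and, with the block as well, COX6C (0.0715). The cause was not tested.

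DESeq2's Wald test called 13 members higher with hairpin 2. Leaving out 1 library gave 9 to 15 members higher with hairpin 1, 4 to 11 higher between hairpins, 9 to 17 lower in the mean contrast and 6 to 15 lower with hairpin 2. The complex V median with hairpin 1 was then -0.0612 to -0.0163 and the complex II median with hairpin 2 -0.0468 to 0.0472. Another 119 counts and 319 medians stayed within 1.5 times or 1 SD.

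Over all genes, libraries with the same replicate number deviated together no more clearly than others. Correlations across the groups were -0.0223 to 0.0395 for the same number and -0.047 to 0.0383 for different numbers. Values this small do not show whether libraries of 1 number were prepared together. With the replicate block alone, 28, 31, 32 and 31 members were called in the mean, hairpin 1, hairpin 2 and between-hairpin contrasts, against 25, 29, 31 and 30 without it. Low counts limit NDUFV2, NDUFA3 and NDUFA7, where fewer than 50 counts per library leave wide intervals.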
